A study of Mus musculus with 2 samples.

Results

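Fatty acid oxidation was followed here through the transcripts of 34 of its enzymes and carriers, out of 32285 genes listed in each library. The members were chosen by symbol from known biochemistry, by a rule that used no measured value but with earlier results of these data known, and each of the 34 symbols matched a row of both count tables. They were ordered by step as 5 genes of the carnitine shuttle, 7 mitochondrial acyl-CoA dehydrogenases, 6 genes of the hydratase, dehydrogenase and thiolase steps, 3 auxiliary genes for unsaturated acyl-CoA, 3 electron transfer genes, 5 genes with peroxisomal functions and 5 long-chain acyl-CoA synthetases. All 34 had 10 or more unique molecular identifiers (UMIs, tags that mark single captured transcripts) in each library.

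Single-cell RNA-Seq was performed on mononucleated cells from the hindlimb muscle of female C57Bl/6J mice aged 24 months. The treated library, ATRA+agonist, came from muscle that had received 3 intramuscular injections of all-trans retinoic acid (ATRA), CD3254, an agonist of the retinoid X receptor RXR-alpha, and BMS961, an agonist of the retinoic acid receptor RAR-gamma. The control library came from muscle injected on the same schedule with the solvent, DMSO vehicle. Dead cells were removed by sorting on propidium iodide, and each library pooled the cells of 2 mice that cannot be separated, so there was 1 library per group and no replicate. Every difference given here is therefore between 2 libraries and not between conditions, no test was possible, and the intervals are 95% intervals that cover counting error only. The agents, the animals, the injections and the library preparations cannot be told apart in this design.

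Long-chain fatty acids are first joined to coenzyme A by acyl-CoA synthetases and are then carried into mitochondria as carnitine esters. Inside, repeated rounds of dehydrogenation, hydration, dehydrogenation and thiolysis shorten the chain and release acetyl-CoA, and the electrons of the first dehydrogenation pass through the electron transfer flavoprotein to ubiquinone. Peroxisomes shorten very long and branched chains with their own set of enzymes. Skeletal muscle fibers rely on this pathway during sustained work, whereas resting muscle stem cells are also known to use it.

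Sequences of 2 start regions are shown because results below return to them, the gap between the starts of Hadha and Hadhb and the start of Acsl3. Hadha and Hadhb encode the alpha and beta subunits of the mitochondrial trifunctional protein and are transcribed away from each other on mouse chromosome 5 (GRCm38), Hadha from the minus strand (30118304 to 30155162) and Hadhb from the plus strand (30155248 to 30184593). Only 85 bases lay between their outermost annotated starts, printed in capitals with 30 bases on either side in lower case, and 69.4% of the 85 bases were G or C. Acsl3, an acyl-CoA synthetase of the endoplasmic reticulum and lipid droplets, lies on the plus strand of chromosome 1 (78657825 to 78707743), and its first 30 annotated transcribed bases are in capitals after 250 bases of upstream sequence. Both are plus-strand sequences of the RefSeq promoter table (GRCm38.p6), at chr5:30155133-30155277 and chr1:78657575-78657854.

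Hadha and Hadhb gap: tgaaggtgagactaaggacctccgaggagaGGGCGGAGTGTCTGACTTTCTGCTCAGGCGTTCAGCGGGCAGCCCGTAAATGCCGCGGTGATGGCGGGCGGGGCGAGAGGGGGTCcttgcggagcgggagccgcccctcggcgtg

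Acsl3 start: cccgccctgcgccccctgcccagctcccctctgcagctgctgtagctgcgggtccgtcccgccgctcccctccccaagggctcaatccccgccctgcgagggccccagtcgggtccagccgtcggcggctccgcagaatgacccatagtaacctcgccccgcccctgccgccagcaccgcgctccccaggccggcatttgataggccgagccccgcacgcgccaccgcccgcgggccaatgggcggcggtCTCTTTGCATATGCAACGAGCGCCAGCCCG

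Start windows of 300 bases (250 before and 50 after the start) were found for 28 of the 34 members, with 31 windows in all. Their median G and C content was 60.7%, beside 52.7% over all 32851 windows, and ranged from 50% to 77%. None of the member windows held TATAAA on either strand, which 13.6% of all windows held. The nuclear receptor core site AGGTCA was found in windows of 5 members (Acadm, Acadvl, Acsl6, Cpt1a and Echs1) and in 16.3% of all windows, and it includes matches that also lie within longer sites. The longer site TCAAGGTCA, which contains AGGTCA, was found for Acsl6 and in 0.423% of all windows. A repeat of the core site spaced by 1 base (AGGTCANAGGTCA), the form bound by PPAR and RXR pairs, was found in no member window and in 0.0396% of all windows, and the repeat spaced by 5 bases (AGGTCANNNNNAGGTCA), the form bound by RAR and RXR pairs, was likewise in none of them and in 0.00913% of all windows. The windows printed for Acsl3 and for the Hadha and Hadhb gap held no exact AGGTCA.

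The deposited counts held 10444 barcodes and 65197625 UMIs for ATRA+agonist and 17394 barcodes and 109343486 UMIs for DMSO vehicle. After filtering, 6907 and 6953 cells remained, with medians of 4700 and 4845 UMIs. The libraries had 43 barcodes in common, 9 of them among kept cells. Clustering gave 25 clusters, of which 19 could be named from markers in 12 cell classes, and 8 of these classes had at least 100 cells in each library. The compared classes were fibro-adipogenic progenitors (FAP-like), muscle stem cells (MuSC-like), endothelial, monocyte or macrophage, neural (glial), perineurial, smooth muscle or pericyte, and tenocyte-like cells. Hemoglobin marker transcripts made up 0.0244% to 0.0495% of the UMIs of these classes in ATRA+agonist and 0.0801% to 0.138% in DMSO vehicle, and the part of free red cell RNA in the results was not tested.

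Across all kept cells the 34 members gave 48864 UMIs in ATRA+agonist, or 1173 counts per 1000000 UMIs (CPM), and 46561 UMIs in DMSO vehicle, or 1144 CPM. Highest and lowest refer to the 8 compared classes here and below. The summed level was lowest in monocyte or macrophage-like cells, with 1104 CPM in ATRA+agonist (interval 1077 to 1131) and 1026 CPM in DMSO vehicle (995 to 1058). Endothelial-like cells, at 1113 and 1029.8 CPM, overlapped these intervals, so the order at the lower end was not settled. When every cell was thinned to 1000 UMIs, monocyte or macrophage-like cells had 1143 and 1109 CPM, and the lowest levels were 1085 CPM in MuSC-like cells of ATRA+agonist and 1033 CPM in endothelial-like cells of DMSO vehicle. It was highest in perineurial-like cells of DMSO vehicle at 1540.2 CPM (1457 to 1627), 1.501-fold (1.409 to 1.598) above the lowest class. In ATRA+agonist the highest class was neural (glial)-like at 1444 CPM (1359.5 to 1532), 1.31-fold above the lowest, and its interval overlapped that of smooth muscle or pericyte-like cells at 1415 CPM (1337 to 1496). Perineurial-like cells differed in depth between the libraries, with medians of 1619 UMIs in ATRA+agonist and 2967 in DMSO vehicle, and gave 1361 CPM in ATRA+agonist.

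**Figure D1:**
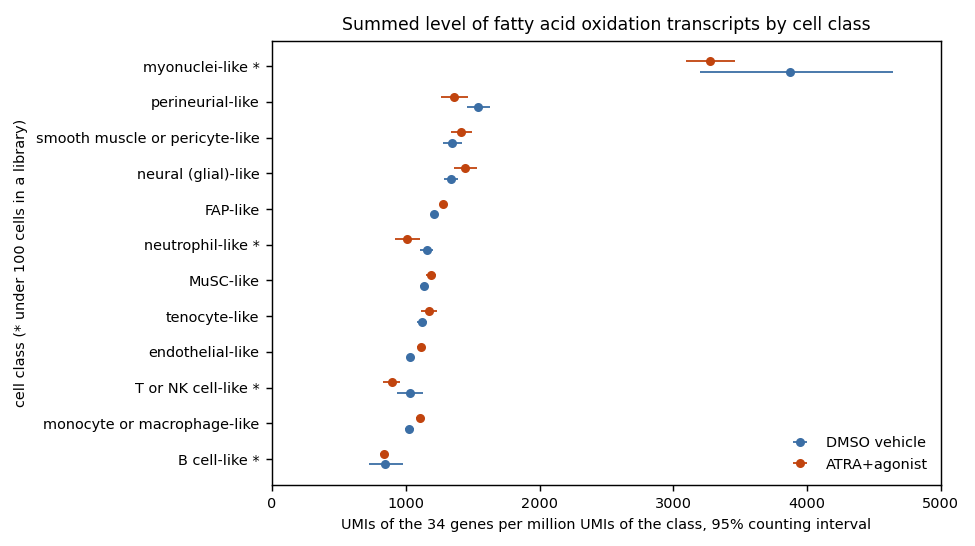
Summed level of the 34 members (x axis, CPM of the class) in 12 cell classes (y axis), with DMSO vehicle in blue, ATRA+agonist in orange-red and lines for the 95% counting interval. The 8 compared classes lie between 1026 and 1540.2 CPM in both libraries, while myonuclei-like cells, 1 of 4 starred classes with under 100 cells in a library, lie at 3270.3 and 3869 CPM.

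The summed level hid differences between the steps. Single members spanned a median of 2.89-fold between their highest and lowest class in ATRA+agonist and 2.84-fold in DMSO vehicle (33 members with enough UMIs, with classes under 3 UMIs of a gene set to 3), beside 5.07-fold and 4.85-fold over 13143 genes. The smallest span in ATRA+agonist was 1.498-fold for Acaa1a, a peroxisomal thiolase whose reads may be shared with its near-identical copy Acaa1b, and in DMSO vehicle it was 1.76-fold for the dehydrogenase Acadl. Acsl3 had the widest span in ATRA+agonist at 11.9-fold, and Acad10, a dehydrogenase of few UMIs, in DMSO vehicle at 9.44-fold, or 14.2-fold from the 2 UMIs of its lowest class as counted. The highest class was the same in both libraries for 18 of 33 members (65.2% of all genes) and the lowest for 19 of 33 (52.6% of all genes). None of the 33 had a highest class at least 2-fold above the next in both libraries, which 16.6% of all genes had, so that no member was a marker of a class by this rule.

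**Figure D2:**
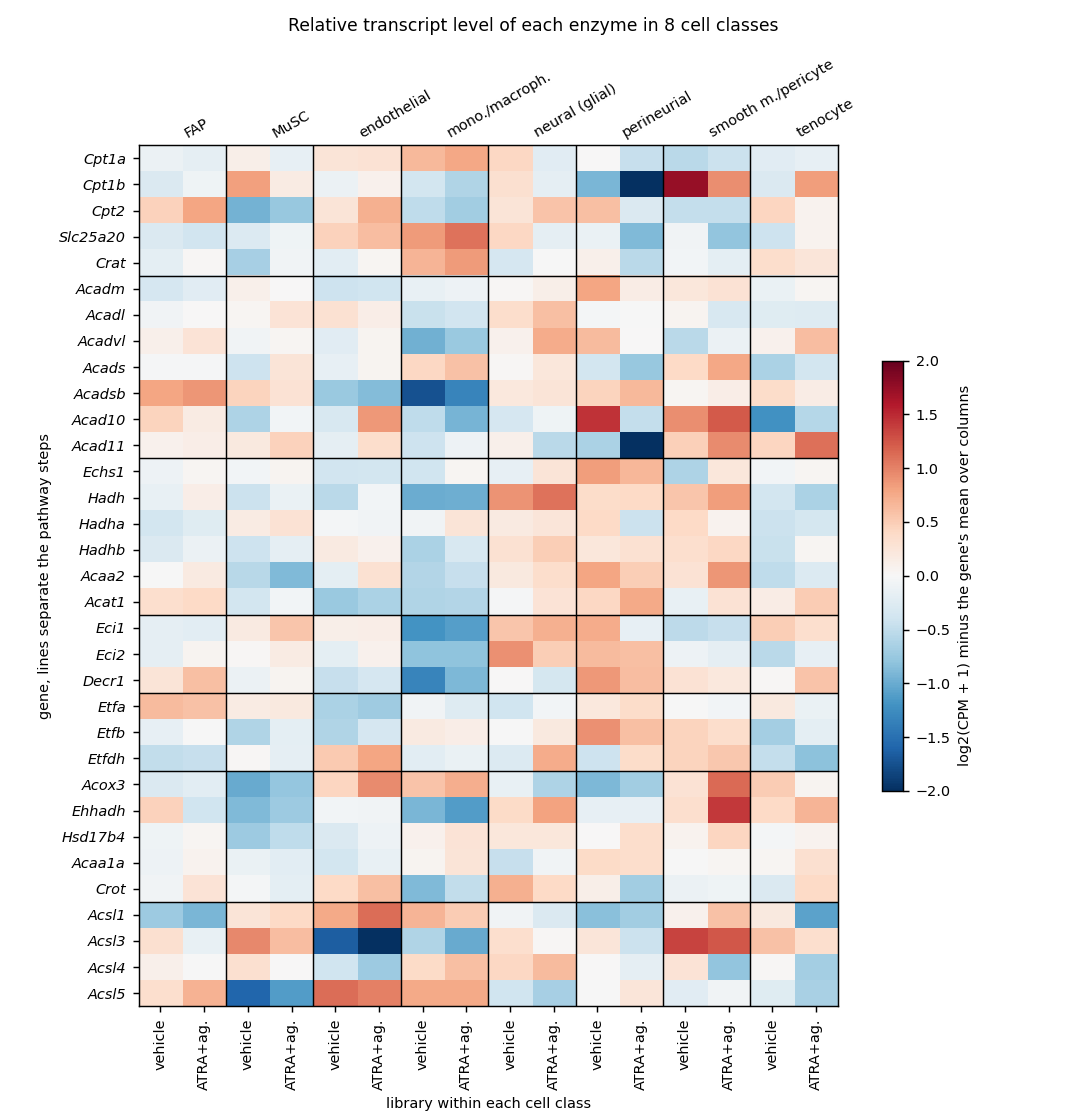
Relative level of 33 members (y axis, grouped by step) in 8 cell classes with both libraries side by side (x axis), as log2(CPM + 1) minus the mean of that gene over all columns, from blue (below its mean) to red (above its mean). Monocyte or macrophage-like columns are red for Cpt1a, Slc25a20 and Crat and blue for Acadsb, Hadh, Eci1, Eci2 and Decr1 in both libraries, and Acsl3 is lowest in the endothelial-like columns.

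The carnitine shuttle brings acyl groups across the mitochondrial membranes, and its summed level was highest in monocyte or macrophage-like cells. There its 5 genes gave 106 CPM (97.6 to 114) in ATRA+agonist and 95.6 CPM (86.3 to 106) in DMSO vehicle, beside 40.9 to 82.3 CPM and 58.2 to 77.2 CPM in the other 7 classes. Both libraries placed 3 members of this step highest in monocyte or macrophage-like cells. They were 3 of 33 members in all, beside 11.7% of all genes. Cpt1a, the isoform of the regulated entry step found in most tissues, reached 51.5 CPM (45.9 to 57.7) and 47.0 CPM (40.6 to 54.2) there, and its next level was 36.7 CPM in endothelial-like cells of ATRA+agonist and 39.9 CPM (31.5 to 49.8, an overlap) in neural (glial)-like cells of DMSO vehicle. Slc25a20, the carnitine and acylcarnitine carrier of the inner membrane, reached 23.8 and 19.95 CPM, beside 16.8 and 15.01 CPM in endothelial-like cells. The Slc25a20 intervals of these classes overlapped in both libraries, so their order was not settled at this depth. Crat, which makes and uses acetylcarnitine, reached 25.0 CPM (21.1 to 29.4) and 21.9 CPM (17.6 to 27.0) there. Its next level was 15.9 CPM (9.74 to 24.6) and 17.2 CPM (12.8 to 22.6) in tenocyte-like cells, with intervals that overlapped in both libraries. Classes too small to be compared reached higher levels, with 85.9 and 56.3 CPM of Cpt1a and 45.2 and 30.3 CPM of Slc25a20 in neutrophil-like cells and 116 and 133 CPM of Crat in myonuclei-like cells.

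Cpt2, which rebuilds acyl-CoA inside the mitochondrion, was highest in FAP-like cells of ATRA+agonist at 12.4 CPM and in perineurial-like cells of DMSO vehicle at 10.8 CPM, the latter from 9 UMIs. MuSC-like cells had the lowest Cpt2 level in both libraries, with 12 UMIs in each and 3.60 CPM (1.86 to 6.29) and 3.02 CPM (1.56 to 5.28). The intervals of Cpt2 in MuSC-like cells lay below those in FAP-like cells in both libraries. They overlapped those of monocyte or macrophage-like cells, at 3.76 CPM (2.36 to 5.70) and 4.43 CPM (2.63 to 7.01). They also overlapped those of smooth muscle or pericyte-like cells, at 4.59 and 4.56 CPM from 4 and 5 UMIs. The lowest rank of Cpt2 was therefore not settled. Cpt1b, the muscle isoform of the entry step, was low in every compared class, from 0 to 6.88 CPM in ATRA+agonist and from 1.19 to 12.8 CPM in DMSO vehicle.

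Cpt1b made up different shares of the UMIs of the Cpt1a and Cpt1b pair. In smooth muscle or pericyte-like cells it gave 6 of 25 UMIs in ATRA+agonist (24.0%, exact interval 9.36% to 45.1%) and 14 of 36 in DMSO vehicle (38.9%, 23.1% to 56.5%). In monocyte or macrophage-like cells it gave 10 of 311 (3.22%, 1.55% to 5.83%) and 9 of 200 (4.50%, 2.08% to 8.37%). Smooth muscle or pericyte-like cells were thus above monocyte or macrophage-like cells in both libraries, with intervals that did not overlap. MuSC-like cells lay between these, at 12.0% (12 of 100) and 16.3% (25 of 153), while FAP-like cells (9.90% and 8.02%) and endothelial-like cells (8.46% and 7.30%) were close to each other.

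The acyl-CoA dehydrogenases take the first electrons from chains of different length. Acadsb, which acts on short branched chains and in isoleucine breakdown, had the same highest and lowest class in both libraries. It was highest in FAP-like cells, at 85.8 CPM (80.9 to 91.0) in ATRA+agonist and 80.8 CPM (76.0 to 85.7) in DMSO vehicle, and lowest in monocyte or macrophage-like cells, at 17.8 CPM (14.5 to 21.6) and 13.1 CPM (9.78 to 17.1). The neighbors below FAP-like cells were perineurial-like cells, at 72.9 and 63.3 CPM, whose wide intervals (52.3 to 98.8 and 47.4 to 82.8) overlapped those of FAP-like cells, and in DMSO vehicle MuSC-like cells stood at the same 63.3 CPM (55.7 to 71.6). Endothelial-like cells had the second-lowest Acadsb level in both libraries, 24.8 CPM (21.1 to 29.0) and 27.2 CPM (23.5 to 31.3), with intervals below those of the 6 higher classes.

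Acadl, the long-chain dehydrogenase, was highest in neural (glial)-like cells at 112 and 94.2 CPM and lowest in monocyte or macrophage-like cells at 55.8 and 53.5 CPM. The next highest levels were 88.9 CPM in MuSC-like cells of ATRA+agonist and 91.3 CPM in endothelial-like cells of DMSO vehicle. The next lowest were 58.5 CPM in smooth muscle or pericyte-like cells and 61.8 CPM in tenocyte-like cells. All of these intervals overlapped, so neither Acadl rank was settled. Acadvl, which acts on very long chains at the inner membrane, was also lowest in monocyte or macrophage-like cells, at 19.7 and 16.8 CPM. These intervals overlapped those of smooth muscle or pericyte-like cells in both libraries. Acadvl reached 56.8 CPM in neural (glial)-like cells of ATRA+agonist and 52.6 CPM in perineurial-like cells of DMSO vehicle. Acadm, for medium chains, was lowest in endothelial-like cells in both libraries at 41.0 and 40.8 CPM, and its other values lay between 43.0 and 94.4 CPM. Acads, for short chains, had 27.5 and 21.0 CPM in smooth muscle or pericyte-like cells and 24.1 and 21.2 CPM in monocyte or macrophage-like cells, whose order changed between the libraries. Acad10 and Acad11, family members with less settled substrates, stayed at or below 10.4 CPM in every compared class of both libraries, from at most 63 UMIs a class.

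The later mitochondrial steps hydrate, oxidize and cleave the chain. Hadh, the dehydrogenase for medium and short chains, was highest in neural (glial)-like cells at 80.6 CPM (61.6 to 104) and 70.9 CPM (59.6 to 83.9) and lowest in monocyte or macrophage-like cells at 18.7 CPM (15.3 to 22.5) and 18.5 CPM (14.5 to 23.2). Smooth muscle or pericyte-like cells were next to the top at 67.6 and 55.6 CPM. Their intervals overlapped the neural (glial)-like ones, so the top rank of Hadh was not settled. Acat1, the thiolase of the last step and of ketone use, was highest in perineurial-like cells (123 and 95.6 CPM) and lowest in endothelial-like cells (45.9 CPM, 40.9 to 51.5, and 42.5 CPM, 37.9 to 47.6). Its next levels were 103 CPM in tenocyte-like cells of ATRA+agonist and 91.1 CPM in FAP-like cells of DMSO vehicle, with intervals that overlapped the perineurial-like ones. Acat1 in monocyte or macrophage-like cells, at 47.4 and 47.0 CPM, did not differ from the endothelial-like level beyond the counting intervals. Echs1, the short-chain hydratase, was highest in perineurial-like cells at 55.1 and 62.1 CPM and ranged from 21.9 to 41.0 CPM elsewhere. Acaa2, the mitochondrial thiolase, was lowest in MuSC-like cells of ATRA+agonist (24.9 CPM) and in monocyte or macrophage-like cells of DMSO vehicle (30.8 CPM), and its highest values were 87.1 CPM in smooth muscle or pericyte-like cells of ATRA+agonist and 81.2 CPM in perineurial-like cells of DMSO vehicle.

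Hadha and Hadhb, whose starts face away from each other across the gap printed above, encode the 2 subunits of a joint complex but did not keep 1 ratio of UMIs across classes. Hadha gave 61.3% of the UMIs of the pair in MuSC-like cells of ATRA+agonist (246 of them, exact interval 56.4% to 66.1%) and 63.1% in DMSO vehicle (58.3% to 67.7%). Monocyte or macrophage-like cells were at 63.0% (59.2% to 66.7%) and 62.9% (57.8% to 67.8%). FAP-like cells were at 51.0% (48.2% to 53.7%) and 51.8% (48.9% to 54.6%), and endothelial-like cells at 50.5% (46.9% to 54.2%) and 49.4% (45.9% to 52.8%). The intervals of the former pair of classes lay above those of the latter pair in both libraries. The share in the other 4 compared classes ranged from 40.3% to 56.3%. A share of UMIs also depends on how well each transcript end is captured, so it gives an order between classes and not the ratio of the subunits.

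Auxiliary enzymes prepare chains with double bonds, and all 3 were lowest in monocyte or macrophage-like cells in both libraries. Their sum there was 49.3 CPM (43.8 to 55.3) in ATRA+agonist and 45.1 CPM (38.8 to 52.1) in DMSO vehicle, beside 84.8 to 129 CPM and 86.7 to 159 CPM in the other classes. Eci1, the mitochondrial enoyl-CoA isomerase, had 14.4 and 13.3 CPM in monocyte or macrophage-like cells and its highest values in neural (glial)-like cells of ATRA+agonist (52.8 CPM) and perineurial-like cells of DMSO vehicle (53.8 CPM). Eci2, an isomerase of mitochondria and peroxisomes, had 24.3 and 24.1 CPM in monocyte or macrophage-like cells and reached 65.8 CPM in perineurial-like cells of ATRA+agonist and 82.3 CPM in neural (glial)-like cells of DMSO vehicle. Decr1, the 2,4-dienoyl-CoA reductase of mitochondria, had 10.6 and 7.64 CPM in monocyte or macrophage-like cells and was highest in perineurial-like cells at 32.0 and 38.2 CPM. In all, 9 of 33 members were lowest in monocyte or macrophage-like cells in both libraries, beside 21.1% of all genes, and 5 of 33 were highest in perineurial-like cells in both, beside 3.30% of all genes. The latter were Echs1, Acat1, Decr1, Etfb and Acaa1a. In ATRA+agonist Decr1 and Acaa1a stood 1.01-fold and 1.03-fold above the next class. Acat1 stood 1.05-fold above it in DMSO vehicle. The intervals of Decr1, Acat1, Acaa1a and Etfb overlapped those of the next class in both libraries, so their top rank was not settled. Those of Echs1 overlapped in ATRA+agonist, where neural (glial)-like cells were next at 41.0 CPM.

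Etfa and Etfb encode the subunits of the electron transfer flavoprotein and followed different orders. Etfa was highest in FAP-like cells at 122 CPM (116 to 128) and 126 CPM (120.2 to 132) and lowest in endothelial-like cells at 49.0 CPM (43.8 to 54.7) and 51.9 CPM (46.8 to 57.5). The FAP-like interval of ATRA+agonist overlapped that of perineurial-like cells at 105 CPM (79.8 to 135). Etfb was highest in perineurial-like cells at 135 CPM (106 to 169) and 168 CPM (142 to 199), above smooth muscle or pericyte-like cells at 114 and 121 CPM, whose intervals overlapped those values. Etfdh, which hands the electrons to ubiquinone, had 31.5 CPM (27.3 to 36.1) and 26.1 CPM (22.5 to 30.1) in endothelial-like cells, beside 12.6 and 12.4 CPM in FAP-like cells. The next Etfdh level was 30.4 CPM (19.3 to 45.6) in neural (glial)-like cells of ATRA+agonist. In DMSO vehicle it was 24.6 CPM (16.2 to 35.8) in smooth muscle or pericyte-like cells. Endothelial-like cells thus had the lowest Etfa level of the compared classes in both libraries. In DMSO vehicle this Etfa interval overlapped that of neural (glial)-like cells at 61.6 CPM (51.0 to 73.7), so the lowest rank was not settled there. The Etfdh level of endothelial-like cells was nominally the highest, but the order at the top was not settled.

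Among the compared classes the peroxisomal group was lowest in MuSC-like cells, with a summed level of 109.6 CPM (98.6 to 121) in ATRA+agonist and 108 CPM (97.9 to 119) in DMSO vehicle. The other 7 had 148 to 194 CPM and 135 to 153 CPM, with intervals above those of MuSC-like cells in both libraries. Some values of the classes not compared were lower, among them B cell-like cells of ATRA+agonist at 83.3 CPM (74.5 to 92.9). Acox3, an acyl-CoA oxidase for branched chains, had 11.7 and 9.83 CPM in MuSC-like cells, beside 41.0 and 28.5 CPM in endothelial-like and 34.9 and 31.3 CPM in monocyte or macrophage-like cells. Hsd17b4, the D-bifunctional protein, was also lowest in MuSC-like cells, at 29.1 and 24.7 CPM, and lay between 34.1 and 56.2 CPM elsewhere. Its MuSC-like intervals overlapped those of endothelial-like cells in both libraries. Ehhadh, the L-bifunctional protein, stayed at or below 12.6 CPM in the compared classes. Crot, which attaches medium chains to carnitine for export from peroxisomes, ranged from 10.8 to 34.7 CPM, and Acaa1a from 40.9 to 74.1 CPM.

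The long-chain acyl-CoA synthetases differed widely between classes. Acsl3 had 116 CPM (94.3 to 141) in ATRA+agonist and 125 CPM (105 to 148) in DMSO vehicle in smooth muscle or pericyte-like cells, followed by MuSC-like cells at 74.8 CPM (65.8 to 84.7) and 94.8 CPM (85.4 to 105). Its lowest level was in endothelial-like cells, at 9.71 CPM (7.46 to 12.4) and 14.7 CPM (12.1 to 17.8). Acsl5, a synthetase of the outer mitochondrial membrane and endoplasmic reticulum, was highest where Acsl3 was lowest, with 40.1 CPM (35.4 to 45.3) and 42.9 CPM (38.3 to 48.0) in endothelial-like cells and 8.41 CPM (5.59 to 12.2) and 5.80 CPM (3.68 to 8.70) in MuSC-like cells. Monocyte or macrophage-like cells came next for Acsl5, at 33.4 CPM (28.9 to 38.4) and 33.5 CPM (28.1 to 39.6). These intervals overlapped the endothelial-like ones, so the top rank of Acsl5 was not settled. Acsl1, the synthetase most tied to fat storage and oxidation in adipose tissue and muscle, was highest in endothelial-like cells at 40.2 and 31.0 CPM, with monocyte or macrophage-like cells next in DMSO vehicle at 29.3 CPM. Acsl4, which prefers arachidonic acid, was highest in neural (glial)-like cells at 93.8 and 80.8 CPM, beside 92.2 and 78.8 CPM in monocyte or macrophage-like cells.

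As shares of the UMIs of the 5 synthetases, Acsl3 made up 58.0% (50.3% to 65.5%) and 53.5% (47.2% to 59.7%) in smooth muscle or pericyte-like cells and 43.7% and 47.1% in MuSC-like cells. In endothelial-like cells it made up 7.69% (5.96% to 9.73%) and 11.0% (9.08% to 13.2%), where Acsl5 gave 31.7% and 32.0% and Acsl1 31.9% and 23.1%. In MuSC-like cells Acsl5 gave 4.91% and 2.88%. Acsl4 was the most frequent synthetase of monocyte or macrophage-like cells, at 52.7% and 45.5%. Acsl6, known from brain and muscle, gave 0 of 819 and 0 of 955 synthetase UMIs in endothelial-like cells, with upper bounds of 0.449% and 0.386%, and 10 of 570 and 13 of 799 in MuSC-like cells.

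**Figure D3:**
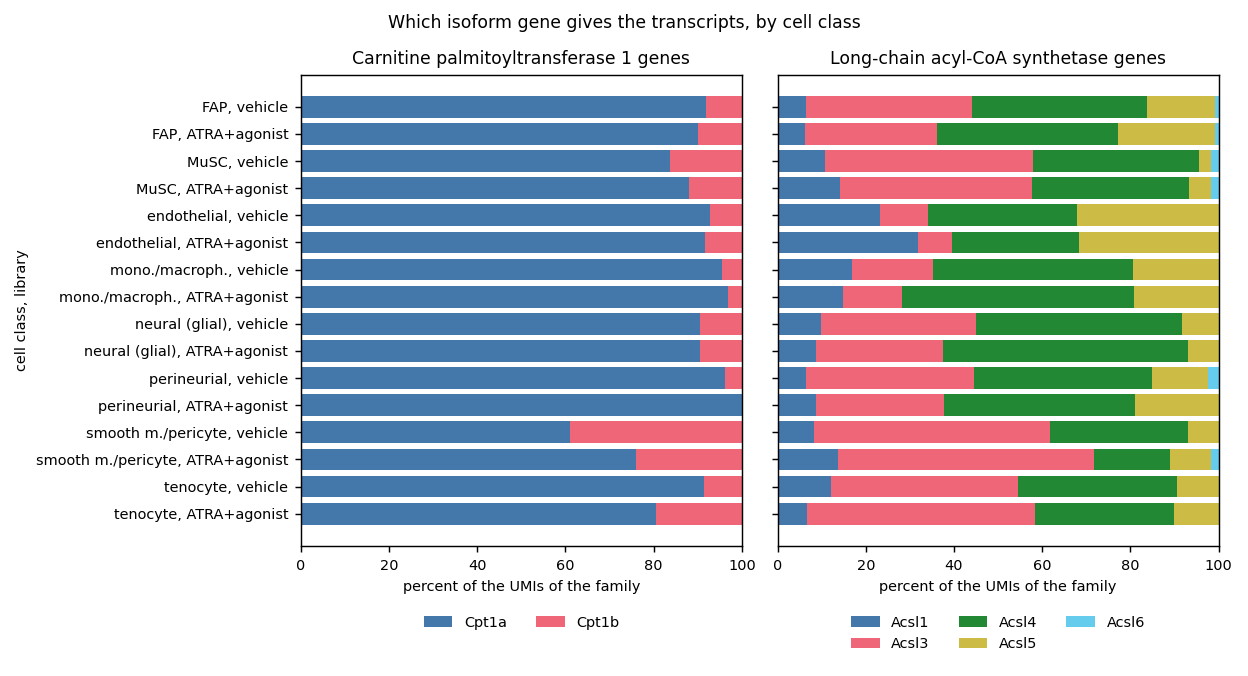
Percent of the UMIs of the Cpt1 pair (left) and of the 5 synthetases (right) that each gene gave (x axis, 0 to 100%), in 8 cell classes and both libraries (y axis). Cpt1b takes its largest shares in smooth muscle or pericyte-like cells (38.9% and 24.0%), and Acsl3 is at most 11.0% in endothelial-like cells and at least 53.5% in smooth muscle or pericyte-like cells.

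Barcodes rich in fiber transcripts were set beside the other cells because the pathway is best known from fibers. Before the cell filters, 271 barcodes of ATRA+agonist and 84 of DMSO vehicle had at least 10% of their UMIs from fiber markers, and their 34 members summed to 3243 CPM (3065 to 3428) and 2975 CPM (2695 to 3275). Etfb had 635 and 573 CPM there, Etfa 332 and 308 CPM, and Acadm 322 and 201 CPM. Cpt1a had 0 UMIs in both, while Cpt1b had 8 and 7, so that every Cpt1 UMI of these barcodes was of the muscle isoform. Acsl5 had 0 UMIs in both, and Acsl3 and Acsl4 had 1 to 4. Acsl6 gave 8 UMIs in ATRA+agonist and 0 in DMSO vehicle.

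In the kept myonuclei-like cells (229 and 19, with medians of 1086 and 1256 UMIs), the synthetases summed to 55.3 CPM (34.2 to 84.5) in ATRA+agonist, below the 119 to 199 CPM of the compared classes. The electron transfer genes summed to 1019 CPM (920.0 to 1126), beside 151 to 263 CPM in the compared classes of the same library. The members together were 3.47% and 4.08% of the level of 83 nuclear-encoded oxidative phosphorylation genes in myonuclei-like cells, and 7.88% to 12.2% in the compared classes. Fiber markers made up at most 0.0251% of the UMIs of any compared class. If all of these had come from fibers, the fiber RNA would have brought at most 0.333% of the UMIs of the 34 members.

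The comparison between the libraries bears on how the oxidation genes stood in aged muscle after ATRA and the agonists, in a study of retinoic acid, muscle stem cells and mitochondrial function. Ratios are log2 values of ATRA+agonist over DMSO vehicle, and a gene was counted as higher or lower where it had at least 50 UMIs over both libraries in the class and differed by at least 0.3219 (0.32 below) on the log2 scale. The summed ratio of the 34 members was above 0 in 7 of 8 compared classes, but it was small in each. It ranged from 0.06 to 0.11 in these 7, and it was -0.18 (-0.31 to -0.05) in perineurial-like cells. The median ratio over the members was 0.08 to 0.17 in the 7 classes, beside medians of -0.02 to 0.08 over all genes, and -0.17 in perineurial-like cells, beside -0.12.

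In MuSC-like cells the summed level was 1187 CPM (1151 to 1225) in ATRA+agonist and 1135 CPM (1102 to 1169) in DMSO vehicle, a ratio of 0.06 (0.00 to 0.13). The members' median was 0.14, beside 0.04 over 9310 genes. Within the larger cluster of the class, led by Hs6st3, Asb5, Pax7 and Myf5, the summed ratio was 0.09 (0.03 to 0.16). The members' median there was 0.18, beside 0.04 over all genes. Of 28 members with enough UMIs in the whole class, 5 were higher (19.3% of all genes) and 2 lower (13.3%). Acads had 18.9 CPM (63 UMIs) in ATRA+agonist and 11.6 CPM (46 UMIs) in DMSO vehicle, a ratio of 0.71 (0.13 to 1.29). Etfb had 77.5 and 58.5 CPM, with a ratio of 0.41 (0.14 to 0.67), and Eci1 had 47.4 and 36.0 CPM, with a ratio of 0.40 (0.06 to 0.73). These 3, a dehydrogenase, an electron carrier subunit and an isomerase, were the members whose interval lay above 0 among the higher ones. Acsl3 was lower, with 74.8 and 94.8 CPM and a ratio of -0.34 (-0.58 to -0.11). When every cell was thinned to 1000 UMIs, the summed ratio of the class was -0.04 (-0.22 to 0.14) and 1 member was higher. Without the upper limit on genes per cell the summed ratio was 0.16 (0.10 to 0.22) and the Acsl3 ratio was -0.06. Acsl3 was also inside the limit after thinning (-0.19) and with no hemoglobin filter (-0.28).

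In FAP-like cells, the class with the most UMIs, the summed level was 1277 CPM (1258 to 1297) in ATRA+agonist and 1211 CPM (1192 to 1229.7) in DMSO vehicle. The summed ratio was 0.08 (0.05 to 0.11). Within the cluster led by Cxcl14 it was 0.02 (-0.02 to 0.07), beside 0.01 over all genes. It was 0.13 (0.06 to 0.19) in the cluster led by Gdf10 and 0.12 (0.06 to 0.18) in that led by Sema3c and Pi16. In each of the latter the all-gene median was 0.02. Of 33 members in the whole class, 4 were higher (10.9% of all genes) and 3 lower (14.5%). Ehhadh had the largest difference, 2.88 CPM (38 UMIs) against 6.04 CPM (81 UMIs), a ratio of -1.07 (-1.67 to -0.50). The other peroxisomal gene past the limit, Crot, went the opposite way, with 25.4 and 19.9 CPM and a ratio of 0.35 (0.12 to 0.59). The Crot ratio ranged from 0.24 to 0.86 over the 14 alternatives and was inside the limit under 3 of them. Decr1 (31.6 and 24.7 CPM) and Cpt2 (12.4 and 9.62 CPM) were each higher with ratios of 0.36 and 0.37, and their intervals began at 0.15 and 0.03. Acad10 was lower at 3.33 and 4.25 CPM, with an interval that held 0 (-0.35, -0.95 to 0.24).

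Within the synthetases of FAP-like cells, Acsl3 was lower and Acsl5 higher. Acsl3 had 43.6 CPM (40.1 to 47.3) and 60.8 CPM (56.7 to 65.1), a ratio of -0.48 (-0.64 to -0.32), and Acsl5 had 32.0 CPM (29.0 to 35.2) and 24.8 CPM (22.2 to 27.6), a ratio of 0.37 (0.16 to 0.58). Acsl3 made up 29.9% (27.9% to 32.0%) of synthetase UMIs in ATRA+agonist and 37.5% (35.5% to 39.6%) in DMSO vehicle. The Acsl3 ratio was -0.50 (-0.71 to -0.29) in the FAP-like cluster led by Cxcl14, -0.60 (-0.95 to -0.27) in that led by Gdf10 and -0.34 (-0.68 to 0.00) in that led by Sema3c and Pi16.

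Endothelial-like cells had 1113 CPM (1087 to 1138) in ATRA+agonist and 1029.8 CPM (1006 to 1054) in DMSO vehicle, a ratio of 0.11 (0.06 to 0.16), beside an all-gene median of 0.08. Different clusters held most of the class in each library: the cluster led by Aqp1 and Kdr had 1488 cells of ATRA+agonist and 644 of DMSO vehicle, and the cluster led by Cd274 and Gbp4, genes known to respond to interferon, had 74 and 988 (the remaining cluster, led by Nebl and Sema3g, had 205 and 197). The summed ratio was 0.02 (-0.04 to 0.09) within the Aqp1 and Kdr cluster, where the members' median was 0.02 beside 0.06 over all genes. It was 0.07 (-0.11 to 0.24) within the Cd274 and Gbp4 cluster and 0.14 (0.01 to 0.27) within the Nebl and Sema3g cluster, so that the interval held 0 in both larger clusters. Of 32 members, 7 were higher (19.9% of all genes) and 2 lower (9.07%). Hadh had 36.2 and 25.5 CPM (ratio 0.50, 0.22 to 0.79), and Acaa2 had 57.5 and 40.6 CPM (0.50, 0.28 to 0.73). Within the Aqp1 and Kdr cluster both intervals also lay above 0, at 0.67 (0.23 to 1.13) for Hadh and 0.42 (0.10 to 0.76) for Acaa2. Acox3 had 41.0 and 28.5 CPM (0.53, 0.26 to 0.80), and its ratio within that cluster was 0.19 (-0.16 to 0.55).

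Acsl1 had 40.2 CPM in ATRA+agonist and 31.0 CPM in DMSO vehicle in endothelial-like cells, a ratio of 0.38 (0.11 to 0.64), 0.55 without the Cd274 and Gbp4 cluster and 0.21 after thinning to 1000 UMIs, 1 of 3 alternatives that placed it inside the limit. Acsl4 was lower, with 36.2 and 45.3 CPM and a ratio of -0.32 (-0.57 to -0.08) that only just passed the limit, and 8 of 16 alternatives placed it inside, down to -0.22. Acsl3 had 9.71 and 14.7 CPM and a ratio of -0.60 (-1.08 to -0.14), which was -0.18 (-0.79 to 0.45) without the Cd274 and Gbp4 cluster. Acad10 had the largest ratio, 1.51 (0.62 to 2.48), from 39 and 15 UMIs, and it had under 50 UMIs without that cluster. Cpt1a, singled out after its values were seen, had a class ratio of 0.04 but went in opposite directions in the clusters. It had 35.4 and 51.3 CPM in the Aqp1 and Kdr cluster (-0.53, -0.87 to -0.19) and 53.8 and 25.7 CPM in the Cd274 and Gbp4 cluster (1.07, 0.18 to 1.86), where ATRA+agonist had 15 Cpt1a UMIs.

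**Figure D4:**
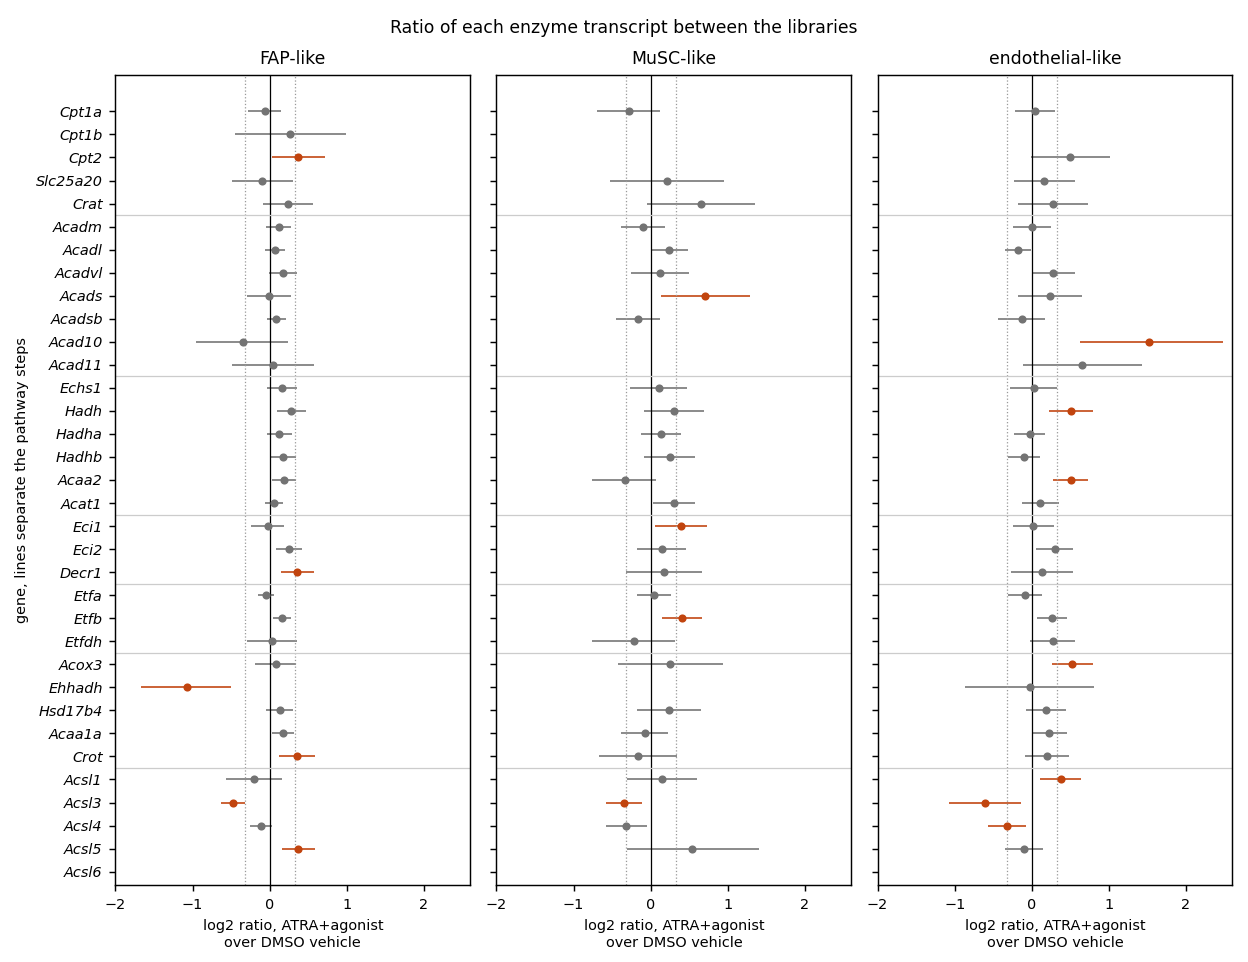
Log2 ratio of ATRA+agonist over DMSO vehicle (x axis) with its 95% counting interval for each member with at least 50 UMIs (y axis, grouped by step), in FAP-like, MuSC-like and endothelial-like cells. Orange-red points are past 0.32 in either direction (dotted lines) with an interval that leaves out 0, and Acsl3 is the only member so marked in all 3 panels, at -0.48, -0.34 and -0.60.

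In the other 5 compared classes, monocyte or macrophage-like cells had 5 higher and 1 lower of 28 members (13.7% and 12% of all genes), among them Hadha at 0.33 (0.09 to 0.56), while its partner Hadhb stood just inside the limit at 0.3202 (0.01 to 0.63). Tenocyte-like cells had 7 and 5 of 25 (16.9% and 22%), smooth muscle or pericyte-like cells 6 and 3 of 19 (20.4% and 18.7%) and neural (glial)-like cells 5 and 5 of 22 (19.1% and 19%). Perineurial-like cells had 2 and 5 of 19 (17.1% and 33.6%), in the class whose depth differed between the libraries. Acsl4 was lower in smooth muscle or pericyte-like cells, at 34.4 and 72.9 CPM (-1.08, -1.74 to -0.46), and in tenocyte-like cells, at 37.5 and 61.4 CPM (-0.71, -1.21 to -0.24), but not in monocyte or macrophage-like cells, where it had 92.2 and 78.8 CPM (0.23, 0.02 to 0.43).

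Of 17 members with enough UMIs in all 8 compared classes, Acsl3 was below 0 in 8 of 8 and Acat1 and Hsd17b4 were above 0 in 8 of 8, beside 4.45% of 3441 genes below and 4.42% above in every class. The Acsl3 ratios ran from -0.69 in perineurial-like cells to -0.11 in smooth muscle or pericyte-like cells, and the interval lay below 0 in 4 classes (FAP, MuSC, endothelial and monocyte or macrophage-like). Acat1 ran from 0.01 to 0.45 and Hsd17b4 from 0.01 to 0.36. The interval of Acat1 lay above 0 in 2 classes and that of Hsd17b4 in none. Within the Aqp1 and Kdr cluster of endothelial-like cells, Acat1 was at -0.09 and Hsd17b4 at -0.11, below 0 unlike the class. All classes of a library share its preparation, so the 8 signs are not 8 independent measurements.

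**Figure D5:**
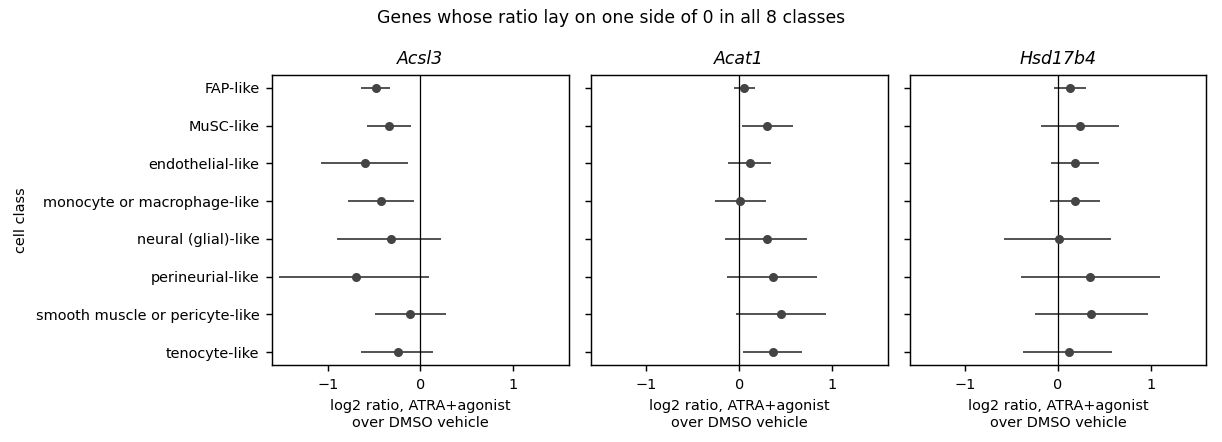
Log2 ratio of ATRA+agonist over DMSO vehicle (x axis) with its 95% counting interval in 8 cell classes (y axis) for Acsl3, Acat1 and Hsd17b4. All Acsl3 points lie below 0, from -0.69 to -0.11, and all Acat1 and Hsd17b4 points above 0, with most intervals of the latter genes crossing 0.

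Neighboring pathways were described with lists chosen by function. In MuSC-like cells, 12 other oxidation enzymes and transporters had a median ratio of 0.33, beside 0.04 over all genes, and 6 of them were higher and 0 lower (19.3% and 13.3% of all genes). The interval lay above 0 for the peroxisomal fatty acid transporter Abcd3 (23.4 and 16.1 CPM, 0.54, 0.04 to 1.04), the complex I assembly factor and dehydrogenase Acad9 (10.8 and 6.05 CPM, 0.84, 0.05 to 1.65), the racemase Amacr (13.5 and 7.06 CPM, 0.94, 0.22 to 1.67) and the phytanoyl-CoA hydroxylase Phyh (22.2 and 14.4 CPM, 0.63, 0.11 to 1.15). Glycolysis genes had a median of 0.22 with 5 of 14 higher and 1 lower, and oxidative phosphorylation genes 0.17 with 8 of 78 higher and 1 lower, beside the same shares of all genes. Ppargc1b, a coactivator of oxidative metabolism, had 20.7 and 9.33 CPM in MuSC-like cells (1.15, 0.56 to 1.77). Its ratio was 0.31 (-0.17 to 0.79) in FAP-like and -0.28 (-0.94 to 0.40) in monocyte or macrophage-like cells. Of other regulator genes in MuSC-like cells, Nrf1 (-0.03), Tfam (0.07), Ppard (-0.05) and Rxra (-0.08) were inside the limit. Esrra (0.43, -0.31 to 1.17) and Rxrb (0.3229, -0.21 to 0.86) were past it, with intervals that held 0. The coactivator and Abcd3, Acad9, Amacr and Phyh had at most 78 UMIs each in a library.

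Genes that PPAR receptors are known to induce, other than the members, had medians below 0 in MuSC-like and endothelial-like cells. In FAP-like cells Fabp4, a fatty acid carrier, was lower (29.7 and 78.8 CPM, -1.41, -1.58 to -1.24), as was Acot1, an acyl-CoA thioesterase (6.81 and 10.3 CPM, -0.60, -0.995 to -0.20). Angptl4 (-0.23), Pdk4 (-0.22), Plin2 (-0.09), Acot2 (0.10) and Ucp2 (0.3207) were inside the limit there. Fabp4 had 15559 and 16873 CPM in endothelial-like cells, and the part of free RNA in its FAP-like and MuSC-like counts was not tested. Among receptor genes of FAP-like cells, Pparg had 14.9 and 7.76 CPM (0.94, 0.59 to 1.30), and Ppara had 4.46 and 7.98 CPM (-0.84, -1.32 to -0.37). In MuSC-like cells the median of the PPAR target list was -0.11 over 6 genes, beside 0.04 over all genes. Fabp4 was lower there (-0.72), while Angptl4 and Plin2 were each at 0.22. In endothelial-like cells the median was -0.18 over 6 genes, beside 0.08 over all genes. Angptl4 was lower there (-0.71), while Acot2 (0.39, -0.17 to 0.94) and Pdk4 (0.28) were above 0. Lpl, which frees fatty acids from lipoproteins, had 575 and 1041 CPM in endothelial-like cells (-0.86, -0.91 to -0.80). The lipase gene Pnpla2 had 74.8 and 120.1 CPM there (-0.68, -0.85 to -0.52). Dgat2, the last step of triglyceride synthesis, was lower in FAP-like (-0.88) and endothelial-like cells (-1.23). The part of the unequal endothelial-like clusters in these pathway values was not tested.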

How the data were processed

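Single-cell libraries of 2 groups, 1 per group, were analysed from the raw UMI counts per gene and barcode that the authors deposited, made per the study's methods with Cell Ranger 7.2.0 on mm10 from 10x 3′ libraries. The authors' annotation of cells was not used here. Cells with 300 to 5000 genes, under 20% mitochondrial and under 0.25% Hbb UMIs were kept, and the 7.5% with the highest rebuilt doublet score were removed. The libraries were merged without batch correction, scaled to 10000 per cell and clustered on 2000 variable genes, leaving out the members, their pathway lists and mitochondrial, ribosomal and hemoglobin genes (30 components, 20 neighbors, Louvain at resolution 0.8). Clusters were named from markers, with at least 3 markers 2-fold above the rest, and otherwise stayed unnamed (6 clusters, 1206 and 903 cells). Rebuilt names may differ from the study's. UMIs were summed per class and library and given as CPM with exact Poisson intervals. Ratios have exact conditional intervals and shares Clopper-Pearson intervals, all at 95%. No test was possible with 1 library per group. Classes were compared with at least 100 cells in each library, and genes with at least 50 UMIs. The members and lists were chosen with earlier results of these data known. The summary of the PPAR target list in FAP-like cells is not reported here. Named ratios were the members past 0.32 on the log2 scale in FAP-like, MuSC-like and endothelial-like cells whose interval left out 0, and a highest class was to be named from 100 UMIs in each library and 2-fold above the next class. Calculations used Python 3.11.15, numpy 2.4.6, scipy 1.17.1, pandas 2.3.3, scikit-learn 1.9.0 and python-igraph 0.11.9, and were tested on simulated data. Of the alternatives, 14 were planned and 2 were added after seeing the data. Gene positions are from GENCODE M21 (GRCm38).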

Additional observations from a re-analysis of the deposited data

Results flagged for a closer look

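For 3 members the ratio of ATRA+agonist over DMSO vehicle went in opposite directions in a pair of classes, past 0.32 on the log2 scale in each with intervals that left out 0. The difference between the classes was not tested. How many of all genes met the same rule was not counted, so whether the 3 set these members apart was not tested. Hadha, the alpha subunit of the trifunctional protein, was at 0.33 in monocyte or macrophage-like cells (422 and 234 UMIs) and at -0.85 in perineurial-like cells (25 and 67 UMIs). Eci1, the enoyl-CoA isomerase, was at 0.40 in MuSC-like cells (158 and 143 UMIs) and at -0.92 in perineurial-like cells (16 and 45 UMIs). Perineurial-like cells had medians of 1619 UMIs in ATRA+agonist and 2967 in DMSO vehicle, and the part of this depth difference was not tested. Acsl1, a long-chain synthetase, was at 0.38 in endothelial-like cells (261 and 221 UMIs) and at -1.37 in tenocyte-like cells (10 and 61 UMIs).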

How the results depend on the processing

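No paired analysis was possible because each group had 1 library, and for the same reason no library could be left out. For MuSC-like cells, the summed log2 ratio of 0.06 was -0.0363 after thinning every cell to 1000 UMIs, and it was 0.16 where the upper limit on genes was dropped. Its count of 5 higher members was 1 after thinning and 3 with a minimum of 100 UMIs. Its count of 2 lower members was 1 with a 10% mitochondrial limit, with no hemoglobin filter and with no upper limit on genes, and 4 with median-ratio scaling. The endothelial-like summed ratio (0.11) was 0.0298 with median-ratio scaling. Its count of 2 lower members was 1 with 15% doublets, at least 500 genes, a 10% mitochondrial limit, resolution 0.4, the members kept in the clustering, cells named one by one, and the shallow endothelial cluster counted in. The FAP-like summed ratio (0.08) was 0.11 with no hemoglobin filter. The fold of 1.501 between the highest and lowest class was 1.33 with 15% doublets, 1.71 with at least 500 genes, 1.252 with no hemoglobin filter, 1.325 with no upper limit on genes and 1.64 at resolution 1.6. The cause of these shifts was not tested. Of 242 alternative values for the 17 named ratios, 5 lay outside the counting interval of the reported ratio, 0 reversed, and 18 fell inside the 0.32 limit, for Crot in FAP-like cells, Acsl3 in MuSC-like cells and Acsl1, Acsl3 and Acsl4 in endothelial-like cells. Thinning kept 128 of 179 perineurial-like cells of ATRA+agonist and 173 of 204 of DMSO vehicle.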

Other observations

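Cells outside the compared classes and 1 small cluster within them are given as values, without a comparison between the libraries. The cluster led by Jchain and Igkc, genes of antibody-secreting cells (93 cells of ATRA+agonist and 74 of DMSO vehicle), had 207 and 181 CPM of the carnitine carrier Slc25a20, whose level in the compared classes was at most 23.8 CPM. Its long-chain dehydrogenase Acadl stood at 171 and 174 CPM, beside at most 112 CPM in the compared classes.

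The small MuSC-like cluster led by Hs6st3, Asb5 and Tenm4 (64 and 39 cells) had 189.7 and 174 CPM of Acsl3 and 108 and 191 CPM of Acsl4, with 0 UMIs of Etfb in both libraries. Its 34 members summed to 714 and 860.4 CPM. The unnamed cluster led by Car3 and Cfd (67 and 110 cells) had 155 and 23.0 CPM of Acsl1 and 41.0 and 6.58 CPM of Acadm.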
